A study of Mus musculus with 947 samples.

Results

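The let-7 family is a group of microRNAs (miRNAs), and the 9 mouse guide strands of it examined here were mmu-let-7a-5p, mmu-let-7b-5p, mmu-let-7c-5p, mmu-let-7d-5p, mmu-let-7e-5p, mmu-let-7f-5p, mmu-let-7g-5p, mmu-let-7i-5p and mmu-miR-98-5p, called let-7a to let-7i and miR-98 in what follows. The members were taken by name, and they made up 9 of 1076 miRNAs among 7883 small RNAs in an aging cohort and 9 of 795 miRNAs among 5248 small RNAs in a parabiosis cohort. Small RNA libraries of the aging cohort came from 16 tissues of perfused C57BL/6JN mice at 10 ages from 1 to 27 months. It held 768 libraries, 552 from males and 216 from females, and the females reached 21 months. Adipose tissues are abbreviated as BAT (brown), GAT (gonadal), MAT (mesenteric) and SCAT (subcutaneous), and each tissue had 31 to 56 libraries, with 1 to 6 per age.

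In the parabiosis cohort, pairs of male mice were surgically joined so that they shared a circulation, and 6 tissues (GAT, heart, kidney, limb muscle, liver and MAT) gave 176 libraries. Isochronic young (IY) mice aged 3 or 4.5 months were each joined to a young partner, and isochronic aged (IA) mice of 19 months to an aged partner. Heterochronic aged (HA) mice of 19 months were joined to heterochronic young (HY) mice of 4 months, with 6 to 8 libraries per tissue and group. The strains were C57BL/6JN and, for some 19-month animals, C57BL/6J, while the HY partners came from a further C57BL/6 strain. HY and IY mice therefore differed in strain and age as well as in partner. All 4 groups underwent the surgery, none was left unjoined, and both partners of an isochronic pair could contribute a library to the same group.

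Levels are given in rpmm, the deposited reads per 1000000 mapped reads. In units of 1000000 mapped reads, library depth was 2.29 to 166.9 (median 20.1) for the aging cohort and 9.198 to 47.61 (median 20.15) for the joined mice. No member was at 0 in any library, and the lowest member value corresponded to 15 reads for the aging mice and 732 for the joined mice. Of 54 tissue and marker-miRNA pairs, the labelled tissue ranked first in 33 and in the first 3 in 47, with MAT (0 of 3 in the first 3), GAT (1 of 3) and bone (1 of 3) the least distinct. The overall miRNA profile lay closest to another tissue in 10 aging and 3 parabiosis libraries, among them a 3-month pancreas library with a summed family level of only 246.1 rpmm. Tissues are bulk samples, so fewer cells of a type and less RNA per cell cannot be told apart.

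A let-7 guide strand is cut from the 5′ arm of a hairpin precursor and loaded into an Argonaute protein, where bases near its 5′ end, the seed, pair with target messenger RNAs and lower their output. The family is known for its high level in differentiated tissues, for targets that include Lin28, Hmga2 and Ras genes, and for the block that LIN28 proteins place on its maturation in stem and embryonic cells. Members with one seed are expected to share many targets, whereas their precursors lie at separate loci.

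The mature sequences (RefSeq, GRCm38.p6) are shown because the family is defined by its seed and because the remaining bases decide whether reads of one member can be told from those of another. Capitals mark the seed, bases 2 to 8.
let-7a-5p: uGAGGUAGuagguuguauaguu
let-7b-5p: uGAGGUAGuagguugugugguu
let-7c-5p: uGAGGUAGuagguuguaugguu
let-7d-5p: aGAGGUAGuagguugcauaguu
let-7e-5p: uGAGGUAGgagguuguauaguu
let-7f-5p: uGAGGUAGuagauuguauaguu
let-7g-5p: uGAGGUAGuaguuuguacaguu
let-7i-5p: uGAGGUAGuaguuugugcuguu
miR-98-5p: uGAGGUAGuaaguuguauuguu

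All 9 members held the seed GAGGUAG and were 22 bases long, so that a level per read was also a level per length. Counted from 1 at the 5′ end with the let-7a base first, let-7c carried A19G, let-7e U9G and let-7f G12A, and let-7b carried A17G and A19G. The remaining members were let-7d with U1A and U16C, let-7g with G12U and U18C, miR-98 with G11A and A19U, and let-7i with G12U, A17G, U18C and A19U. Of the 36 pairs of members, 4 differed at 1 base (a and c, a and e, a and f, b and c) and 10 at 2 bases. Since the authors' mapping allowed 1 mismatch, reads could be exchanged among such close members, and their separate levels are less certain than their sum.

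The annotation (GRCm38) placed the 9 guides at 12 hairpin genes. On chromosome 13, minus strand, Mirlet7d (48536012 to 48536114), Mirlet7f-1 (48537829 to 48537917) and Mirlet7a-1 (48538179 to 48538272) lay in exons of the long noncoding RNA gene 6720427I07Rik. On chromosome 15, plus strand, Mirlet7c-2 (85706603 to 85706697) and Mirlet7b (85707319 to 85707403) lay in exons of Lncppara. Chromosome X, plus strand, held Mirlet7f-2 (151912346 to 151912428) and Mir98 (151913214 to 151913321) in introns of the protein-coding gene Huwe1. The next 3 loci neighboured miRNAs of other families within 10 kb. These were Mirlet7c-1 on chromosome 16 (77599657 to 77599750, plus strand) in an intron of Mir99ahg beside Mir99a, Mirlet7e on chromosome 17 (17830352 to 17830444, plus strand) in an intron of Spaca6 beside Mir99b and Mir125a, and Mirlet7a-2 on chromosome 9 (41536716 to 41536811, plus strand) in an intron of 3110039I08Rik beside Mir100. Mirlet7g on chromosome 9 (106178840 to 106178927, plus strand) lay in an intron of Wdr82, and Mirlet7i on chromosome 10 (122985640 to 122985724, minus strand) in an exon of the transcribed pseudogene D630033A02Rik.

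Across tissues the family was abundant everywhere and most abundant in lung and brain. The summed level in lung ran from 25514 to 461907 rpmm with a median of 124449 (mean 126752 ± 61581, SD, n = 55), and in brain from 10973 to 169481 with a median of 112230 (mean 96595 ± 49551, SD, n = 51). Kidney (median 93173), GAT (82336), SCAT (82291), heart (75508), MAT (67673) and skin (60380) followed. Small intestine (52879), BAT (52402), liver (49206), marrow (44072) and spleen (38218) came next, and limb muscle (36848), pancreas (35486) and bone (34071) were lowest. The bone libraries spanned 13379 to 108310 rpmm (mean 37242 ± 20509, SD, n = 48), so that the single libraries of the highest and lowest tissue overlapped although the medians differed 3.65-fold. The highest bone library was one of those whose overall profile lay closest to another tissue, SCAT. As a share of all miRNA signal, the family took a median of 5.42% in limb muscle up to 26.1% in SCAT, which is a different order from that of the levels.

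**Figure D1:**
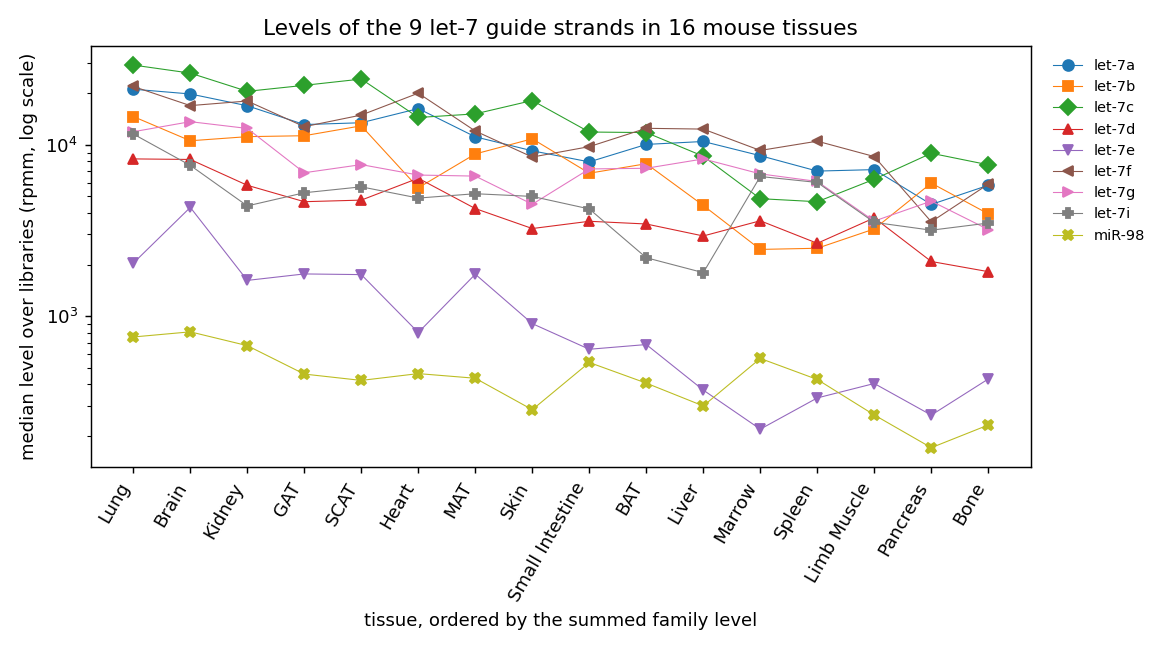
Median level of each of the 9 let-7 members over the libraries of a tissue in the aging cohort (vertical axis in rpmm, log scale), with tissues ordered by the summed family level. The highest median of every member is in lung or brain, and let-7e spans the widest range, from 219 rpmm in marrow to 4315 rpmm in brain.

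By member, the highest tissue was lung for let-7a (median 21129 rpmm), let-7b (14630), let-7c (29223), let-7d (8278), let-7f (21919) and let-7i (11568), and brain for let-7e (4315), let-7g (13655) and miR-98 (810). The lowest tissue varied more. It was pancreas for let-7a (4489), let-7f (3556) and miR-98 (171), bone for let-7d (1819) and let-7g (3204), marrow for let-7b (2453) and let-7e (219), spleen for let-7c (4656) and liver for let-7i (1795). The ratio of the highest to the lowest median was 4.26 for let-7g to 6.45 for let-7i in 8 members, and 19.7 for let-7e. The let-7e level in brain was 426 to 9325 rpmm (mean 3946), and in marrow 71.7 to 495 (mean 216), ranges that overlapped at their ends.

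Pairwise tissue differences of log2(rpmm + 1) were tested with limma over all miRNAs, with Benjamini-Hochberg adjustment. Of 1080 member and tissue-pair comparisons, 800 (74.1%) passed an adjusted p of 0.05, against 70.1% of all miRNA comparisons, so a called difference between tissues was common for any miRNA. Tissues of the aging cohort were taken from the same mice, and the fit treats their libraries as independent. The number of the 120 tissue pairs that passed was 81 for let-7g and for let-7i, 82 for let-7f, 87 for let-7d and miR-98, 91 for let-7a, 94 for let-7c, 97 for let-7b and 100 for let-7e. In the order of the median levels, most neighbouring tissues did not differ beyond their spread, since only 3 (let-7i and miR-98) to 6 (let-7a and let-7e) of the 15 neighbouring pairs passed. Some of the pairs that passed ran against that order. BAT, with the higher median, was lower in the fit than skin for let-7a (-0.70) and let-7d (-0.68). It was likewise lower than small intestine for let-7e (-0.84) and let-7g (-1.02) and than liver for let-7f (-0.93). Brain was lower than SCAT for let-7c (-0.46). Lung was the higher tissue in 122 and the lower in 1 of its 135 comparisons, whereas pancreas was the higher in 9 and the lower in 108. The 5 largest differences of each sign all concerned let-7e, where the sign follows only the alphabetical order of the tissue names. It was higher in brain than in marrow by 3.86 on the log2 scale (SE 0.173), than in pancreas by 3.67 and than in spleen by 3.14, and higher in lung and in GAT than in marrow by 3.31 and 3.18. With the lower tissue named first, its differences were -3.10 (BAT minus brain), -2.96 (marrow minus SCAT) and -2.89 (marrow minus MAT). Bone minus brain was -2.87 and pancreas minus SCAT -2.77.

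The members differed in their share of the family. The leading member by median share was let-7c in 11 tissues and let-7f in 5, namely heart (25.8%), limb muscle (22.6%), liver (23.9%), marrow (22.02%) and spleen (26.1%). The let-7c share ran from 11.2% in spleen to 30.9% in skin, and the let-7b share from 5.55% in marrow to 17.2% in skin. By contrast, let-7i reached its highest share in marrow (15.4%) and its lowest in liver (3.71%), and let-7g was highest in liver (17.1%) and lowest in skin (7.24%). miR-98 had the smallest share in 14 tissues, and let-7e in marrow (0.467%) and spleen (0.854%), while let-7e took 3.88% in brain. Single libraries mostly followed their tissue: let-7c was first in 37 of 37 GAT and 43 of 51 brain libraries, and let-7f in 51 of 55 spleen libraries. BAT was mixed, with let-7f first in 13, let-7c in 12 and let-7b in 6 of 31 libraries. As let-7a, let-7b, let-7c and let-7f are joined by 1-base differences, and as adapter ligation favours some sequences, ranks within the family depend on the library preparation and the mapping as well.

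**Figure D2:**
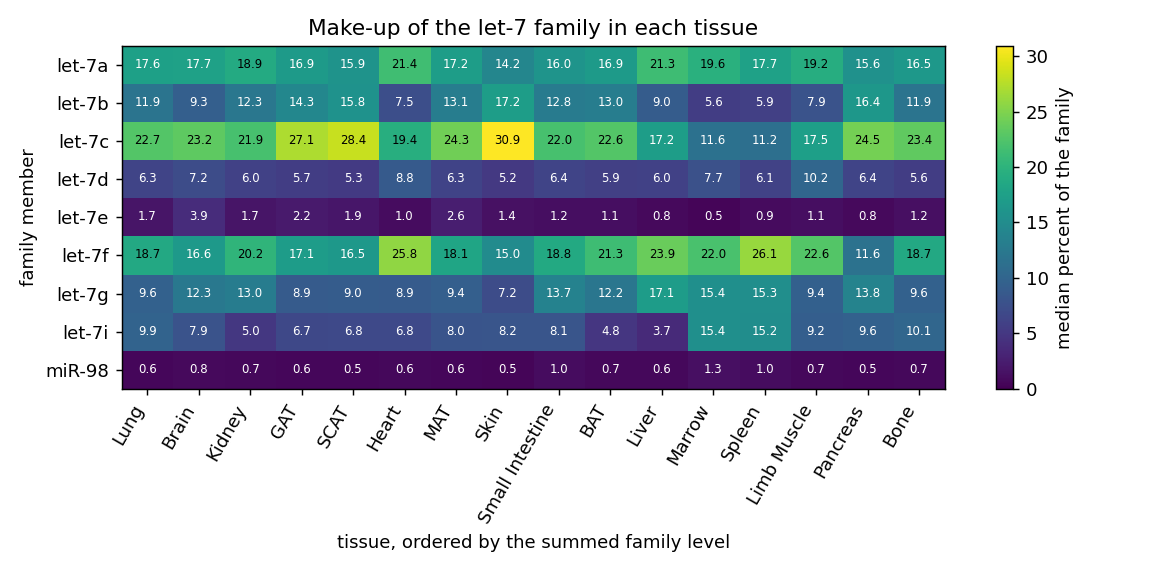
Heat map of the median share of each member (rows) in the summed let-7 family level of the 16 aging-cohort tissues (columns), with colour and printed values in percent. The let-7c share is largest in skin (30.9%) and the let-7f share in spleen (26.1%).

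As a description over the 16 tissue medians, Spearman's rho between members ran from 0.285 for let-7g with let-7i to 0.947 for let-7b with let-7c, with a median of 0.679 over 36 pairs. The pair let-7a and let-7f, neighbours at the chromosome 13 locus, had a rho of 0.926. Both of these pairs have members at a shared locus and differ by only 1 base. The pair let-7c and let-7e, which shares no locus and differs at 2 bases, had the same rho of 0.926. Among 349 other miRNAs, the profiles over the same 16 tissue medians most like the summed family were those of miR-99b-3p (rho 0.944), miR-872-5p (0.938), miR-674-3p (0.935), miR-26a-5p (0.926) and miR-99b-5p (0.926), against a median of 0.403 over these miRNAs. Both arms of miR-99b, whose hairpin lies beside that of let-7e, were thus among the 5. The lowest values belonged to miR-2137 (-0.612) and miR-6239 (-0.632). The libraries behind the medians are shared by all miRNAs, and their denominators too.

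The passenger strands, cut from the opposite arm of the hairpins, were present at a small fraction of the guides. As a percentage of guide plus passenger, the median over tissues was 0.0427% for let-7b (0.0137 to 0.0848%), 0.122% for let-7e, 0.298% for let-7g, 0.426% for miR-98 and 1.19% for let-7d (0.412 to 1.51%). For let-7i it was 4.55%, from 2.98% to 6.89%, with the highest value in heart. Of the miRNAs that neighbour let-7 hairpins or belong to the same clusters, the level over tissue medians was 678 rpmm for miR-99a-5p, 68.4 for miR-99b-5p, 45.6 for miR-125b-5p, 41.1 for miR-100-5p and 9.31 for miR-125a-5p, all below the level of most let-7 guides. The miRNA named let-7j, whose seed GAGGUAU differs from that of the family, was at 359 rpmm.

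Age was examined first as Spearman's rho between age in months and level in each tissue. No member passed a rho of 0.5 in either direction in any tissue (0 of 144 combinations), while 8.07% of all miRNA and tissue combinations did. The member values ran from -0.322 for let-7i in lung to 0.437 for let-7b in GAT. By a permutation test (two-sided, 100000 shuffles of the ages within a tissue, Benjamini-Hochberg adjustment over all miRNAs of the tissue) 23 combinations had an unadjusted p under 0.05 and 3 an adjusted p under 0.05, against 18% of all combinations. These were let-7d in BAT (rho 0.435, adjusted p = 0.0444), let-7b in GAT (rho 0.437, p = 0.00723, adjusted p = 0.0387) and let-7b in MAT (rho 0.370, p = 0.011, adjusted p = 0.0442). The calls depended on the setting. No member passed in these 3 tissues with median-ratio scaling or without a filter. With plate or title set as covariate 0 passed in BAT and GAT and 2 in MAT. With miRNA-read scaling 0 passed in BAT and GAT and 4 in MAT. Without the libraries closest to another tissue 0 passed in MAT. With a mean of at least 10 rpmm as the filter 5 passed in BAT. In BAT all 9 members lay between 0.336 and 0.435, where the median of all miRNAs was 0.385. Scaled to miRNA reads, 8 of the 9 remained above 0 in BAT, with values from -0.0236 to 0.363, and by median-ratio scaling 8 of 9 as well.

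The let-7b level in GAT had medians of 10390 rpmm at 1 month, 10290 at 3, 10764 at 6, 10135 at 9, 14781 at 12, 16620 at 15, 13367 at 18 (1 library), 14251 at 21, 10726 at 24 (2 libraries) and 16713 at 27 months (2 libraries). The ages overlapped, and single 3-month libraries ranged from 6317 to 18599 rpmm. Pearson's r was 0.381 (permutation p = 0.0193, n = 37), and r was 0.345 when the 2 libraries of the most extreme age were left out. Within plates with at least 6 libraries the relation was uneven, with rho 0.842 on plate P2 (n = 10) and -0.145 on plate P8 (n = 6). In MAT, let-7b had medians from 5922 rpmm at 3 months to 11811 at 21 months and a Pearson's r of 0.371 (permutation p = 0.00798, n = 47). The r was 0.370 with 2 of the 3 libraries at 27 months, the most extreme age, left out. The overall profiles of these 3 libraries lay closest to SCAT or GAT. Within plates its rho was 0.618 on P10, 0.588 on P2 and -0.144 on P9. Under miRNA-read scaling the let-7b and all other member values in GAT lay between -0.148 and 0.296, and none had an adjusted p under 0.05.

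The heart stood on the other side of 0, with rho between -0.218 and -0.0318 for the 9 members, none past an adjusted p of 0.05. Relative to 3 months, all 9 members had a negative log2 difference in heart at 1, 6, 9, 15, 18, 21, 24 and 27 months, and 4 of 9 at 12 months. The median over members was -0.54 at 21 months and -0.83 at 27 months, and it stayed below 0 when scaled to miRNA reads (-0.36 and -0.68). None of these differences passed the limma test, and they share the 3-month libraries, one of which held 1828 rpmm of miR-98, far above the other 4. The summed family, too, had a highest 3-month library of 187092 rpmm beside a median of 70464. Medians of the sum were lower at 1, 15, 18 and 21 months (66720, 61184, 69079 and 67353). They were higher at 6, 9, 12, 24 and 27 months (80528, 76682, 86505, 77075 and 74893). In males only, rho ran from -0.12 to 0.0534, with 3 of 9 above 0. In lung and spleen, too, all 9 values of rho were below 0, with either other scaling as well. None passed an adjusted p of 0.05 (permutation test) in the main setting. In lung 2 passed with either other scaling, 2 with title set as covariate and 1 in males only. In spleen 1 passed with median-ratio scaling and 2 without the 24- and 27-month libraries. With plate as covariate 2 of 9 were above 0 in spleen, and without the 1-month libraries 1 of 9 was in lung.

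Single ages were compared with 3 months by limma in each tissue with at least 3 libraries per age. At 1 month, 0 of 126 member and tissue combinations passed an adjusted p of 0.05 (limma, Benjamini-Hochberg; 16 at an unadjusted p under 0.05; 0 by edgeR on recovered reads), where 1.76% of all miRNA combinations did. The miR-98 level in heart was 99.04 to 645 rpmm at 1 month (median 429, n = 6) and 424, 462, 546, 670 and 1828 rpmm at 3 months. The groups overlapped, and the difference was -1.06 on the log2 scale (SE 0.391, limma adjusted p = 0.204), or -0.70 without the 3-month library at 1828 rpmm. In kidney the miR-98 level was 217, 419, 945, 1162, 1278 and 1461 rpmm at 1 month and 100, 279, 390, 446 and 692 rpmm at 3 months. That difference was 1.24 (SE 0.509, limma adjusted p = 0.183), and the miR-98 library at 100 rpmm also had the lowest total miRNA signal of the 3-month kidneys (57385 rpmm). Without 1-month kidney replicate 09, all 9 members passed in kidney. Without MAT 1-month replicate 04 or 35, 7 did in MAT, in fits with only 2 MAT libraries at 1 month that take their spread from all ages. With all libraries the MAT differences ran from -0.60 to -1.22. The lowest of the 3 MAT libraries at 1 month had a summed family level of 3660 rpmm. Their median was 59705 rpmm, against a median of 51502 at 3 months.

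Between 21 and 3 months, the interval used as the aging contrast beside the parabiosis data, 0 of 126 combinations passed (limma; 12 at an unadjusted p under 0.05; 0 of 117 by edgeR), where 3.87% of all combinations did. The let-7b level in MAT was 3456, 5369, 5922, 6149 and 6484 rpmm at 3 months and 9446, 10754, 11811, 12914 and 14284 rpmm at 21 months. The groups did not overlap, and the difference was 1.13 on the log2 scale (SE 0.430, limma adjusted p = 0.143). In small intestine the let-7e level was 159, 535, 586, 615 and 832 rpmm at 3 months and 578 to 1284 rpmm at 21 months (n = 6), with overlap, a difference of 0.69 (SE 0.313) and a limma adjusted p of 0.132. In kidney every member was above 0, from 0.80 for miR-98 (limma adjusted p = 0.229) to 1.37 for let-7d (limma adjusted p = 0.127). The 3-month kidney libraries held 57385 to 437938 rpmm of total miRNA signal, and its part in the result was not tested.

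Of the 900 combinations of member, tissue and later age (other than 21 months) tested against 3 months, 3 passed (0.333%; limma; 56 at an unadjusted p under 0.05; 2 of 891 by edgeR), against 2.63% of all miRNA combinations. All 3 were lower in skin at 6 months. The let-7a level was 9048, 10194, 11444, 11909, 14110 and 14285 rpmm at 3 months and 2371, 4483, 4834, 6489, 7305 and 7658 rpmm at 6 months. Every 6-month library lay below every 3-month library, and the difference was -1.18 on the log2 scale (SE 0.336, limma adjusted p = 0.0428). The groups did not overlap for let-7f either, at 8487 to 15926 rpmm and 2283 to 7584 rpmm (difference -1.26, SE 0.377, limma adjusted p = 0.0459), nor for let-7g, at 4284 to 6976 rpmm and 1518 to 3916 rpmm (difference -1.02, SE 0.316, limma adjusted p = 0.0459). All 9 members were below 0, from -0.74 to -1.26, and 8 had an unadjusted p under 0.05, while the median of all 544 skin miRNAs was -0.34 and 5.7% of them were called lower.

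At later ages the skin difference was smaller and not called in the main fit. Some members were called at 15 months in males only, and at 15 and 18 months with title set as covariate. All 9 members were below 0 against 3 months at 9, 12, 15 and 18 months, with medians over members of -0.37, -0.34, -0.61 and -0.70, and all 9 were above 0 at 27 months (median 0.31). The sign at 9, 12 and 15 months depended on the scaling, since with miRNA reads as denominator 5, 0 and 3 of 9 were below 0, and 8 of 9 at 18 months. For let-7a the difference was -0.70 at 15 months (SE 0.336, limma adjusted p = 0.124) and -0.85 at 18 months (SE 0.336, limma adjusted p = 0.0823). Skin medians of let-7a were 12550 rpmm at 1 month, 11676 at 3, 5661 at 6, 9234 at 9, 9193 at 12, 7437 at 15, 6950 at 18 and 16079 at 27 months. The summed family had a median of 73821 rpmm at 3 months (62086 to 96894), 45204 at 6 months (19428 to 56587), 47731 at 21 months (n = 2) and 111450 at 27 months. Total miRNA signal moved too, with a median of 310175 rpmm at 3 months and 234954 at 6 months, and the family share of it was 23.8% and 18.7%. When the levels were scaled to miRNA reads, the differences were -0.54 (let-7a, limma adjusted p = 0.0771), -0.62 (let-7f, 0.149) and -0.38 (let-7g, 0.214), so none passed. None passed by median-ratio scaling either (-0.77, -0.85 and -0.61, limma adjusted p = 0.0679, 0.086 and 0.135) or without the filter on low levels (0.0748, 0.0863 and 0.0863). Within plate P11 the let-7a level was 14110 and 14285 rpmm at 3 months against 7658 and 4483 at 6 months. The 4 limb-muscle marker miRNAs summed to a mean of 37828 rpmm at 3 months (5345 to 79631) and 14664 at 6 months (6898 to 20647), with none at 0, and the 2 skin markers to 24827 (21296 to 30562) and 19503 (10708 to 29901). Their part in the result was not tested. At 6 months all 9 members stayed below 0 under both other scalings. Leaving out any one of 7 of the 3- and 6-month skin libraries lost all 3 calls.

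**Figure D3:**
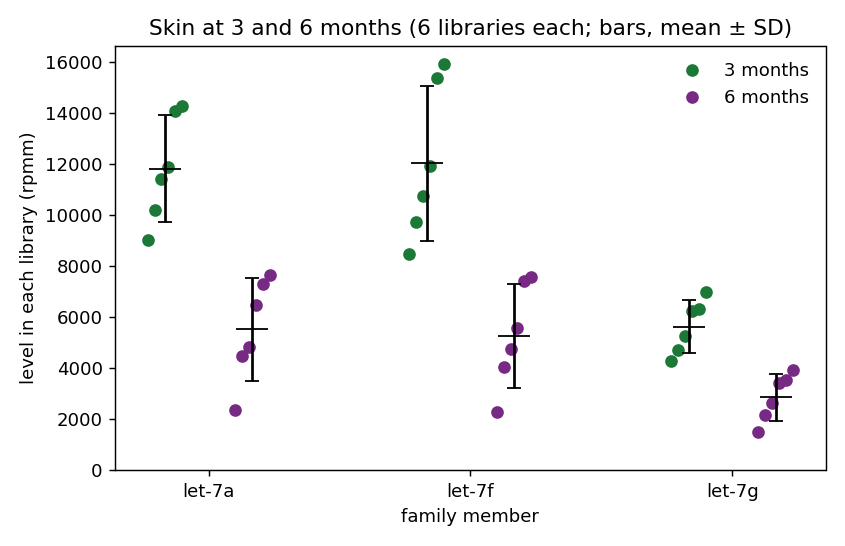
Level of let-7a, let-7f and let-7g in each skin library at 3 and 6 months (vertical axis in rpmm from 0), with bars for the mean ± SD. For each of these members the 6 libraries at 6 months lie below the 6 libraries at 3 months.

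Females and males were compared within each tissue with age in the fit, up to 21 months. No member passed in any tissue (0 of 144 by limma, 12 at an unadjusted p under 0.05; 0 by edgeR, 7 at an unadjusted p under 0.05), where 4.42% of all miRNA combinations did. The liver stood highest, with all 9 members above 0 and 7 with an unadjusted p under 0.05. There let-7f was 6866 to 19776 rpmm in females (median 15346, n = 14) and 3620 to 23442 rpmm in males (median 10458, n = 30). The ranges overlapped widely, and the difference of females minus males was 0.50 (SE 0.196, limma adjusted p = 0.119). For miR-98 the medians were 385 and 274 rpmm and the difference 0.46 (SE 0.182, limma adjusted p = 0.119). Scaled to miRNA reads, 8 of the 9 members remained above 0 in liver.

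The change with age per month was also compared between the sexes, and 0 of 144 combinations passed (limma, where 0.226% of all combinations did). The smallest unadjusted p-values were those of let-7d in bone (-0.12 per month, males minus females, SE 0.0455, limma adjusted p = 0.406) and let-7a in bone (-0.10, limma adjusted p = 0.406), while adjusted p-values were lower in brain (limma, 0.170 for let-7i to 0.305 for let-7f). Females at 21 months gave 1 bone library, at 6164 rpmm of let-7d and 18688 rpmm of let-7a, far above the other bone libraries from females. It is also the bone library whose profile lay closest to SCAT. Without the libraries closest to another tissue the slopes differed by -0.09 and -0.06, with a limma adjusted p of 0.717 for both.

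In the parabiosis cohort, the family was lower in aged than in young hearts of isochronic pairs. Of 54 member and tissue combinations, 9 passed in the comparison of IA with IY (16.7%; limma, Benjamini-Hochberg over all miRNAs of a tissue; 20 at an unadjusted p under 0.05; 9 by edgeR), against 8.13% of all miRNA combinations. All 9 were the members in heart, and all were lower in IA, where 8.91% of the 516 heart miRNAs were called lower. The summed family level was 47480 to 86180 rpmm in IY hearts (median 67647, n = 8) and 35334 to 60074 rpmm in IA hearts (median 44388, n = 8). Of the 8 IA libraries 4 lay below every IY library, and of the 8 IY libraries 6 lay above every IA library. The family took a median of 12.7% of the miRNA signal in IY and 9.13% in IA hearts, with 11.5% in HY and 10.5% in HA.

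Among the members of the chromosome 13 cluster, let-7a was at 9700 to 18562 rpmm in IY hearts (median 14344) and 6757 to 12053 rpmm in IA hearts (median 9351). Of the IY libraries 7 lay above every IA library, and the difference was -0.61 on the log2 scale (SE 0.153, limma adjusted p = 0.0105). The let-7f level, the highest of the family in heart, was 12689 to 24869 rpmm (median 19194) in IY and 10074 to 16130 rpmm (median 12885) in IA, with a difference of -0.49 (SE 0.156, limma adjusted p = 0.0307). let-7d was at 3906 to 7365 rpmm (median 5572) and 2579 to 5281 rpmm (median 3359), a difference of -0.57 (SE 0.149, limma adjusted p = 0.0125). All 3 members overlapped between the groups but had their lowest libraries in IA and their highest in IY.

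Of the chromosome 15 pair, let-7b was at 3373 to 5719 rpmm (median 4308) in IY and 2023 to 4917 rpmm (median 2618) in IA (difference -0.63, SE 0.169, limma adjusted p = 0.013), and let-7c at 8432 to 14766 (median 11869) and 5463 to 12374 rpmm (median 8038; difference -0.58, SE 0.166, limma adjusted p = 0.0188). let-7g, from its own locus in Wdr82, was at 4658 to 8435 rpmm (median 6155) in IY and 3334 to 5351 rpmm (median 4235) in IA, the difference with the smallest SE (-0.58, SE 0.138, limma adjusted p = 0.0105). let-7i (-0.62, SE 0.180, limma adjusted p = 0.0199), let-7e (-0.62, SE 0.199, limma adjusted p = 0.0307) and miR-98 (-0.55, SE 0.155, limma adjusted p = 0.0188) differed by like amounts. The let-7e level was 553 to 1018 rpmm in IY and 328 to 814 in IA, and the miR-98 level 326 to 634 and 265 to 398. The 9 differences thus lay between -0.49 and -0.63 for members of very different levels, some from a shared locus and some from separate loci. The guides let-7a, let-7c and let-7f each have hairpin genes at more than 1 locus, so their levels cannot be assigned to one. The 9 values come from the same libraries, and reads could be exchanged among close members, so they are not independent.

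The heart libraries were sequenced in pools that did not hold the groups evenly. Of the IA libraries 6 were in pool 7 and 2 in pool 8, and of the IY libraries 3 and 5. The summed level was higher in pool 8 in both groups. In pool 7 it was 35334 to 52092 rpmm in IA and 47480 to 64115 rpmm in IY, and in pool 8 it was 57350 to 60074 and 61522 to 86180 rpmm. Within pool 7 all 9 members were below 0 (-0.70 to -0.29, median -0.49), and within pool 8 all 9 as well (-0.48 to -0.13, median -0.33). With pool as a covariate the differences were -0.36 to -0.56, and 1 of the 9 calls remained, let-7g (-0.49, limma adjusted p = 0.0331), with an adjusted p of 0.0577 to 0.128 for the others. Scaled to miRNA reads the differences were -0.36 to -0.51 and 5 calls remained (let-7a, let-7b, let-7d, let-7g and let-7i). Without IA replicate 9B 5 calls remained.

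**Figure D4:**
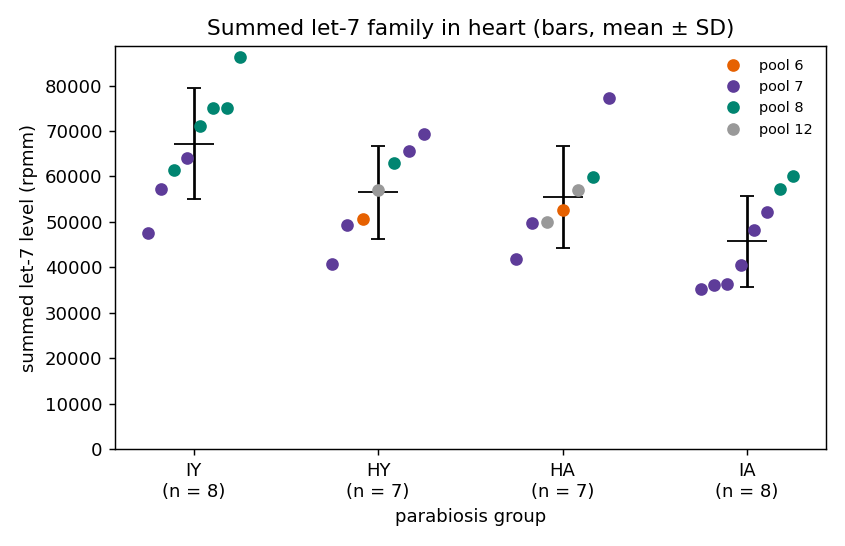
Summed let-7 family level in each heart library of the 4 parabiosis groups (vertical axis in rpmm), with points coloured by sequencing pool and bars for the mean ± SD. IY libraries reach from 47480 to 86180 rpmm and IA libraries from 35334 to 60074 rpmm, and pool 8 holds the highest libraries of both groups.

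The miRNAs that share let-7 clusters moved the other way in these hearts. Of the 5 cluster partners, 4 were called higher in IA, miR-99a-5p (0.53), miR-99b-5p (0.73), miR-100-5p (0.61) and miR-125b-5p (0.55), where 9.69% of all heart miRNAs were called higher, and miR-125a-5p differed by 0.60 (limma adjusted p = 0.071). The miR-99b level was 70.0 to 199 rpmm in IY (median 108) and 110 to 324 rpmm in IA (median 176), and the miR-99a level 1560 to 3010 rpmm (median 1805) and 1850 to 4736 rpmm (median 2807), with overlap in both. miR-99b and miR-125a lie beside let-7e, whose guide strand was lower in the same libraries. With pool as a covariate all 5 remained above 0 (0.37 to 0.54) but none was called, and scaled to miRNA reads all 5 were called.

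Values of the passenger strands lay on both sides of 0. Of 12 passenger strands and other let-7 names tested in heart, 0 were called higher and 1 lower, let-7j (-0.64), 7 were above 0 and the median was 0.03 (10 above 0 and 0.15 when scaled to miRNA reads, 5 and -0.01 by median-ratio scaling). The names let-7a-1-3p and let-7c-2-3p had nearly equal levels over the aging tissues (medians 127.15 and 127.16 rpmm), so they are not separate evidence. Over its first 22 bases let-7j differs from let-7i only at base 8, so it could take up let-7i reads. The log2 ratio of guide to passenger was lower in IA than in IY for 6 of 6 hairpins, with means of 9.14 and 8.57 for let-7b, 5.76 and 5.15 for let-7d, 8.38 and 7.55 for let-7e, 7.80 and 7.29 for let-7g, 3.71 and 2.99 for let-7i, and 6.21 and 5.64 for miR-98 (IY first). The let-7i passenger was at 299.7 to 411 rpmm in IY (median 311) and 295 to 453 rpmm in IA (median 349). The difference between guide and passenger was not tested.

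**Figure D5:**
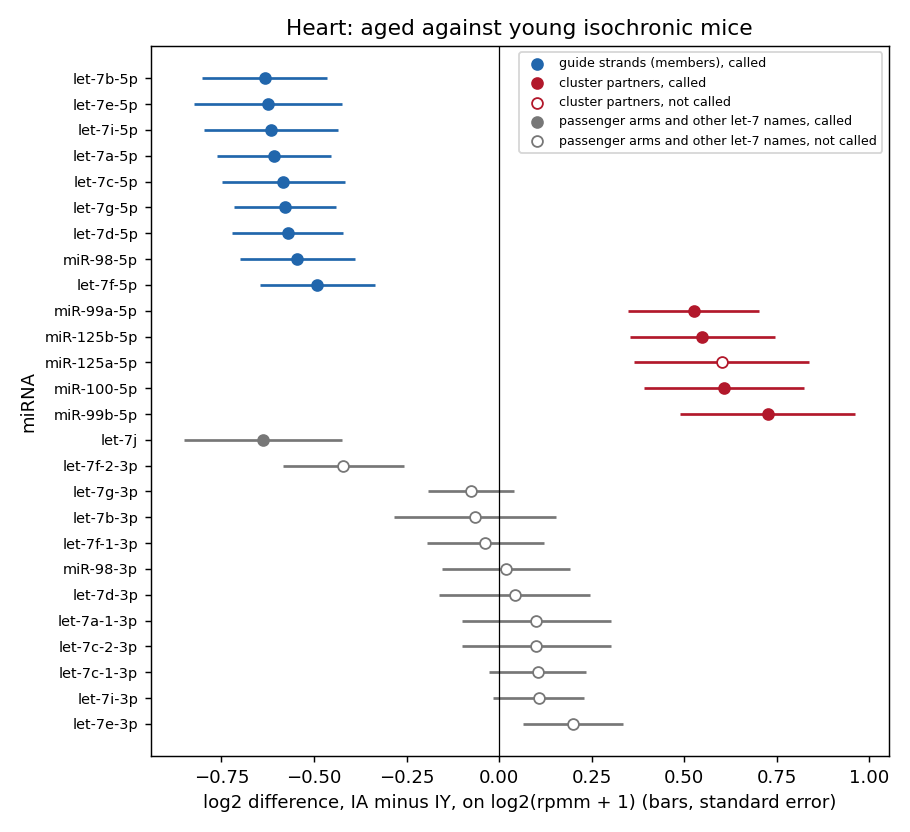
Log2 difference between IA and IY hearts on log2(rpmm + 1) (horizontal axis) for the 9 let-7 members, the 5 cluster partners and the 12 passenger strands and other let-7 names, with bars for the standard error and filled points for calls. The members lie between -0.63 and -0.49, the cluster partners between 0.53 and 0.73, and the passenger strands on both sides of 0.

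Among the leukocyte and heart marker miRNAs, miR-142a-3p and miR-1a-3p were called between these hearts. The 3 leukocyte markers summed to 766 to 1290 rpmm in IY (mean 933) and 927 to 1532 rpmm in IA (mean 1205), with none at 0 and miR-142a-3p called higher (0.77, limma adjusted p = 0.0105). The other leukocyte markers were miR-150-5p at 0.25 and miR-223-3p at -0.15, neither called. The 4 heart markers summed to means of 206629 and 182268 rpmm, with miR-1a-3p, a muscle miRNA, called lower (-0.49, limma adjusted p = 0.0385). The other heart markers were miR-133a-3p at 0.11, miR-499-5p at 0.25 and miR-208a-3p at -0.02, none called. The 3 blood markers had means of 1653 and 1689 rpmm. Their part in the result was not tested.

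In the other tissues no member passed in the comparison of IA with IY. All 9 were below 0 in GAT (median -0.14, but 6 of 9 by median-ratio scaling), kidney (-0.33, 3 at an unadjusted p under 0.05) and MAT (-0.73, 6 at an unadjusted p under 0.05), 6 of 9 in limb muscle, and in liver 7 of 9 were above 0 (median 0.14). In MAT the direction depended on the scaling, since with miRNA reads as denominator 6 of 9 were below 0 and the median was -0.14. Without MAT IY replicate 16A, 14 combinations passed in all, 5 more than with it. Whether the heart differed from the other tissues was not tested.

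Exposure of aged mice to a young partner was read from HA against IA (rejuvenation, REJ). None of 54 combinations passed (0 by limma, 7 at an unadjusted p under 0.05; 0 by edgeR, 4 at an unadjusted p under 0.05), where 0.965% of all miRNA combinations did, and 0.388% of heart miRNAs in the higher direction. In heart, let-7b was at 2969 to 5716 rpmm in HA (median 4582, n = 7) and 2023 to 4917 rpmm in IA (median 2618, n = 8). Of the HA libraries 3 lay above every IA library, and the difference was 0.61 (SE 0.175, limma adjusted p = 0.063). let-7d was at 3969 to 6249 rpmm (median 5286) in HA and 2579 to 5281 rpmm (median 3359) in IA, with a difference of 0.48 (SE 0.155, limma adjusted p = 0.063). Within pool 7 these differences were 0.68 and 0.52 for 3 HA and 6 IA libraries, and within pool 8 they were 0.04 and 0.15 for 1 HA and 2 IA libraries. When single heart libraries were left out, let-7b passed in 7 of 30 fits and let-7d in 3, with the lowest adjusted p for both without IA replicate 19A (0.0155 and 0.0299). In MAT all 9 members were above 0, but 4 of 9 with miRNA reads as denominator.

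Exposure of young mice to an aged partner was read from HY against IY (accelerated aging, ACC). None of 54 combinations passed or had an unadjusted p under 0.05 by limma or edgeR, where 0% of all miRNA combinations passed. In heart, let-7g was at 4237 to 6498 rpmm in HY (median 5169, n = 7) and 4658 to 8435 rpmm in IY (median 6155), with a difference of -0.29 (limma adjusted p = 0.577), and let-7d at 3183 to 5147 rpmm (median 4723) and 3906 to 7365 rpmm (median 5572), with -0.28 (limma adjusted p = 0.603). Of the 54 differences 53 were below 0, and 39 with miRNA reads as denominator. Between the joined partners of heterochronic pairs (HA against HY) 0 of 54 passed (limma, 1 at an unadjusted p under 0.05; 0 by edgeR), where 9.81% of all miRNA combinations did. The let-7i level in kidney was 3497, 5813, 6487, 7277, 8002 and 8804 rpmm in HA and 2645 to 5901 rpmm in HY, with 0.64 (SE 0.298, limma adjusted p = 0.130), and miR-98 in heart differed by -0.34 (limma adjusted p = 0.156).

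The difference between REJ and ACC was tested as one contrast over the 4 groups. It passed for 2 of 54 combinations (3.7%; limma; 6 at an unadjusted p under 0.05; 2 by edgeR), against 0.592% of all miRNA combinations, and for 2.13% of heart miRNAs in the higher direction. Both were in heart, let-7b (0.89, SE 0.247, limma adjusted p = 0.0422) and let-7d (0.76, SE 0.219, limma adjusted p = 0.0422), and all 9 members were above 0 there. Their levels in the 4 groups are those given for each comparison, with let-7b medians of 4308 rpmm in IY, 3800 in HY, 4582 in HA and 2618 in IA. The calls were lost with pool as a covariate (adjusted p = 0.0976 for let-7b and 0.106 for let-7d), when scaled to miRNA reads (0.057 and 0.0621) and without the filter on low levels (0.0623 for both). With single libraries left out, let-7b passed in 14 and let-7d in 11 of 30 fits, and the highest adjusted p for both was 0.0897, without HY replicate 5B. The 5 cluster partners lay on the other side, all below 0 (median -0.76, none called, and 1 called when scaled to miRNA reads).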

How the data were processed

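Small RNA was prepared with the MGIEasy kit and sequenced single-end on a BGISEQ500RS. The authors processed reads with miRMaster, mapping with Bowtie to mm10 (the build named in the submitters' processing notes) and to miRBase precursors with 1 mismatch allowed, let the highest-counting precursor stand for a mature miRNA, and deposited reads per 1000000 mapped reads, the unit of every value here (rpmm, a signal per library). Of paralogous RNAs the authors kept the first. In the aging table, 3 of 771 columns matched no sample and were not used.

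The low values are whole multiples of the worth of 1 read: 98.97% (aging) and 98.84% (parabiosis) of miRNA values up to 1000 reads, and 100% of those of other RNAs, were whole within 0.05 reads. Reads recovered so, in 732 of 768 and 174 of 176 libraries, entered edgeR as an added comparison.

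The main test was limma on log2(rpmm + 1) per tissue over all miRNAs above 1 rpmm in at least 10% of libraries, with Benjamini-Hochberg adjustment over the tissue's miRNAs and 0.05 as the threshold. Fold changes are on that scale, which understates changes of low miRNAs. Ages needed 3 libraries each before any library was left out. All 9 members passed the filter in every tissue. Correlations with age were tested by permutation. Groups came from the labels. Libraries of a tissue and age were separate mice in the aging cohort, whereas isochronic partners of the parabiosis cohort shared a circulation. The members and lists were chosen with earlier results of these data known. For each comparison the text names every called member and tissue combination, the 5 largest in each direction where over 20 were called, and the 2 with the smallest unadjusted p where none was. Pair numbers were checked by the correlation of partners' deviations from their group means, which was over 0.1 in 2 of 12 (MAT) to 10 of 15 (liver) pairs, so the main fit has no pair term.

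Alternatives changed scaling, filter, pseudocount, plate, title set, sex, doubtful libraries, the call rule and single libraries. Pool as a covariate, the alternatives of REJ against ACC and the sexes' slopes without doubtful libraries were added after seeing the data. The tests were tested on simulated data. Tools were R 4.3.3, limma 3.58.1, edgeR 4.0.16, Python 3.11.15, numpy 2.4.6, pandas 2.3.3 and scipy 1.17.1.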

Additional observations from a re-analysis of the deposited data

Results flagged for a closer look

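Groups of 4 to 10 libraries were examined for a library far from the rest of its group (Dixon's criterion), for the member, tissue and group combinations named in the text. Of 54 groups tested 3 held such a library, where chance gives about 1 in 20. The let-7e level in small intestine was 1284 rpmm in replicate 44 at 21 months. The miR-98 level in heart was 1828 rpmm in replicate 02 at 3 months, the group that the heart comparison of 1 with 3 months used. The let-7g level in heart was 6978 rpmm in HA replicate 12A.

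The difference of HA from IA and that of HY from IY were unequal in heart, by the test of that difference, for let-7b (0.89 on the log2 scale) and let-7d (0.76). HY and IY mice also differed in strain and age, and neither call held with pool as a covariate, with miRNA-read scaling or without the filter on low levels.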

How the results depend on the processing

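No named combination changed sign, but the majority of the 9 members in MAT did with miRNA-read scaling, at 1 month (9 below 0 to 9 above 0) and for REJ (9 above 0 to 4), and in skin at 12 and 15 months. Pairwise tissue calls (694 to 826 of 1080), the sex comparison (0), the slopes by sex (0) and HY against IY (0) stayed within 1.5 times their count in every alternative run. The 3-month comparisons did not. Counts for 1 month, 21 months and all later ages were 1, 1 and 13 with miRNA-read scaling (0, 0 and 3 as reported; none of the 13 was among the 3) and 12, 10 and 52 with a ratio over 3/2 or under 2/3 and an unadjusted p. Later ages gave 0 with median-ratio scaling, 0 without a filter, 6 in males only, and 18 with plate or with title set as covariate, which kept all 3. The calls added by these covariates differed. Plate added every member in brain at 12 months, some in liver at 27 months and let-7c in skin at 6 months. Title set added members in liver at 27 months and in skin at 6, 15 and 18 months, and none in brain. The ratio rule gave 3 for REJ and 1 for HA against HY. IA against IY gave 5 with miRNA-read scaling and 1 with pool, and REJ against ACC 0 with miRNA-read scaling, 0 without a filter and 0 with pool. For the correlation with age the count was 1 in males only, 1 with plate and 3 with adjusted p in place of rho.

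Leaving out 1 library at a time gave 0 to 9 calls at 1 month (9 without kidney 1-month replicate 09, 7 without MAT 1-month replicate 04 or 35), 0 to 3 at 21 months (3 without kidney 3-month replicate 23, 2 without MAT 1-month replicate 21) and 0 to 5 at later ages. There the count was 5 without kidney 3-month replicate 23 or liver 21-month replicate 17, 0 without skin 3-month replicates 18, 20, 22 or 44 or 6-month replicates 01, 21 or 38, and 1 without skin replicates 17 (9 months), 53 (12), 50 (15) or 51 (18). It gave 0 to 2 for REJ (2 without HA 11A, IA 19A or IA 6A, and 1 without HA 20A, HA 5A, IA 19B or IY 10A), 5 to 14 for IA against IY (5 without heart IA 9B, 14 without MAT IY 16A) and 0 to 2 for REJ against ACC, where both calls were lost without each of 16 heart libraries and 1 without each of 3.

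With the pair number as a random replicate block, IA against IY gave 11 calls, the 9 in heart and let-7e and miR-98 in MAT, REJ against ACC 2, and REJ, ACC and HA against HY 0. A fixed pair block gave 0 for HA against HY. Every member value rested on at least 15 reads, and the part of depth in these counts was not tested.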
